A study of Mus musculus with 6 samples.

Results

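Glycosyltransferases of glycan chains are Golgi enzymes that build the sugar chains of glycoproteins and glycolipids, 1 sugar at a time. They were defined here by symbol, as the genes of the B4galnt, B3galnt, B3gnt, B3galt, B4galt, St3gal, St6gal, St6galnac, St8sia, Fut, Gcnt, Mgat and Galnt families that carry a number. This gave 84 of 18193 measured genes, 83 of them protein coding and 1, Fut4-ps1, a transcribed pseudogene. Each gene was represented by its brightest probe set, the one with the highest mean over all 6 arrays. Brightness was therefore the measured value used in choosing, and since the mean includes the N1IC arrays, a probe set can be chosen through the group where it is high. By the mean over the WT arrays alone, another probe set would stand for 4 of the 84, B4galnt2, Mgat3, St3gal2 and St8sia2. The families themselves were picked out with results of this comparison known, so the counts below describe them and support nothing further.

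RNA was measured on 1 Affymetrix array per sample in LSK cells, the lineage-negative, cKit-positive, Sca1-positive fraction of bone marrow that holds stem cells and early progenitors. The 3 WT mice carried the genotype Mx1-cre+, and the 3 N1IC mice carried lox-stop-lox N1-IC Mx1-cre+, which releases the active intracellular part of Notch1 wherever Cre has acted. Mx1-cre is induced by polyIC in blood cells and in other tissues. All mice were 5 weeks old, and polyIC was injected 3 times at 20 mcg per g of body weight from day 21, with cells taken 2 weeks after the last injection. The treatment text of the labels names Ncstn flox/flox mice instead of N1-IC, and the groups here follow the genotype labels and titles. WT replicates 1 and 3 are males, while WT replicate 2 and the 3 N1IC mice are females. Which mice were littermates is not given, and p-values measure the spread between these mice.

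Glycan chains are built in order. Galnt enzymes start mucin-type O-glycans by adding GalNAc to serine or threonine, and Gcnt enzymes branch them. Mgat enzymes branch N-glycans, B3gnt and B4galt enzymes lengthen the branches with alternating GlcNAc and galactose, and the ends are capped with fucose, sialic acid or GalNAc. In blood cells the finished ends matter for homing, since selectins bind fucosylated and sialylated chains, and the sugars on the Notch receptor itself tune its response to ligands.

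The question was whether RNA of these enzymes differed in LSK cells carrying active Notch1. By limma, 5 of the 84 genes were higher in N1IC and 9 were lower at an adjusted p under 0.05, while 70 did not pass. That is 16.7% of the enzymes against 11.8% of all genes tested; 5.95% were higher against 3.47% of all genes, and 10.7% were lower against 8.31%. The median log2 fold change, the N1IC mean minus the WT mean of log2 intensity, was -0.12 for the enzymes and -0.01 for all genes. The 5 that rose were B4galnt2, B3galt5, B3gnt6, B4galt7 and Gcnt3. The 9 that fell were Galnt5, B3gnt7, B4galt6, Gcnt2, Fut4, Fut10, Fut7, St8sia4 and Mgat1. With an array left out, each count takes every enzyme called in that fit, including those not called with all arrays. The higher count was then 2 without WT replicate 3, and 3 without WT replicate 2 or any single N1IC array. Without WT replicate 2 or N1IC replicate 2, B3gnt6, B4galt7 and Gcnt3 lost their call. St8sia6 was called higher instead in the former fit and St6galnac2 in the latter. The lower count was 5 without N1IC replicate 2. With all arrays, every sialylation family other than that of St8sia4 had no call.

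**Figure D1:**
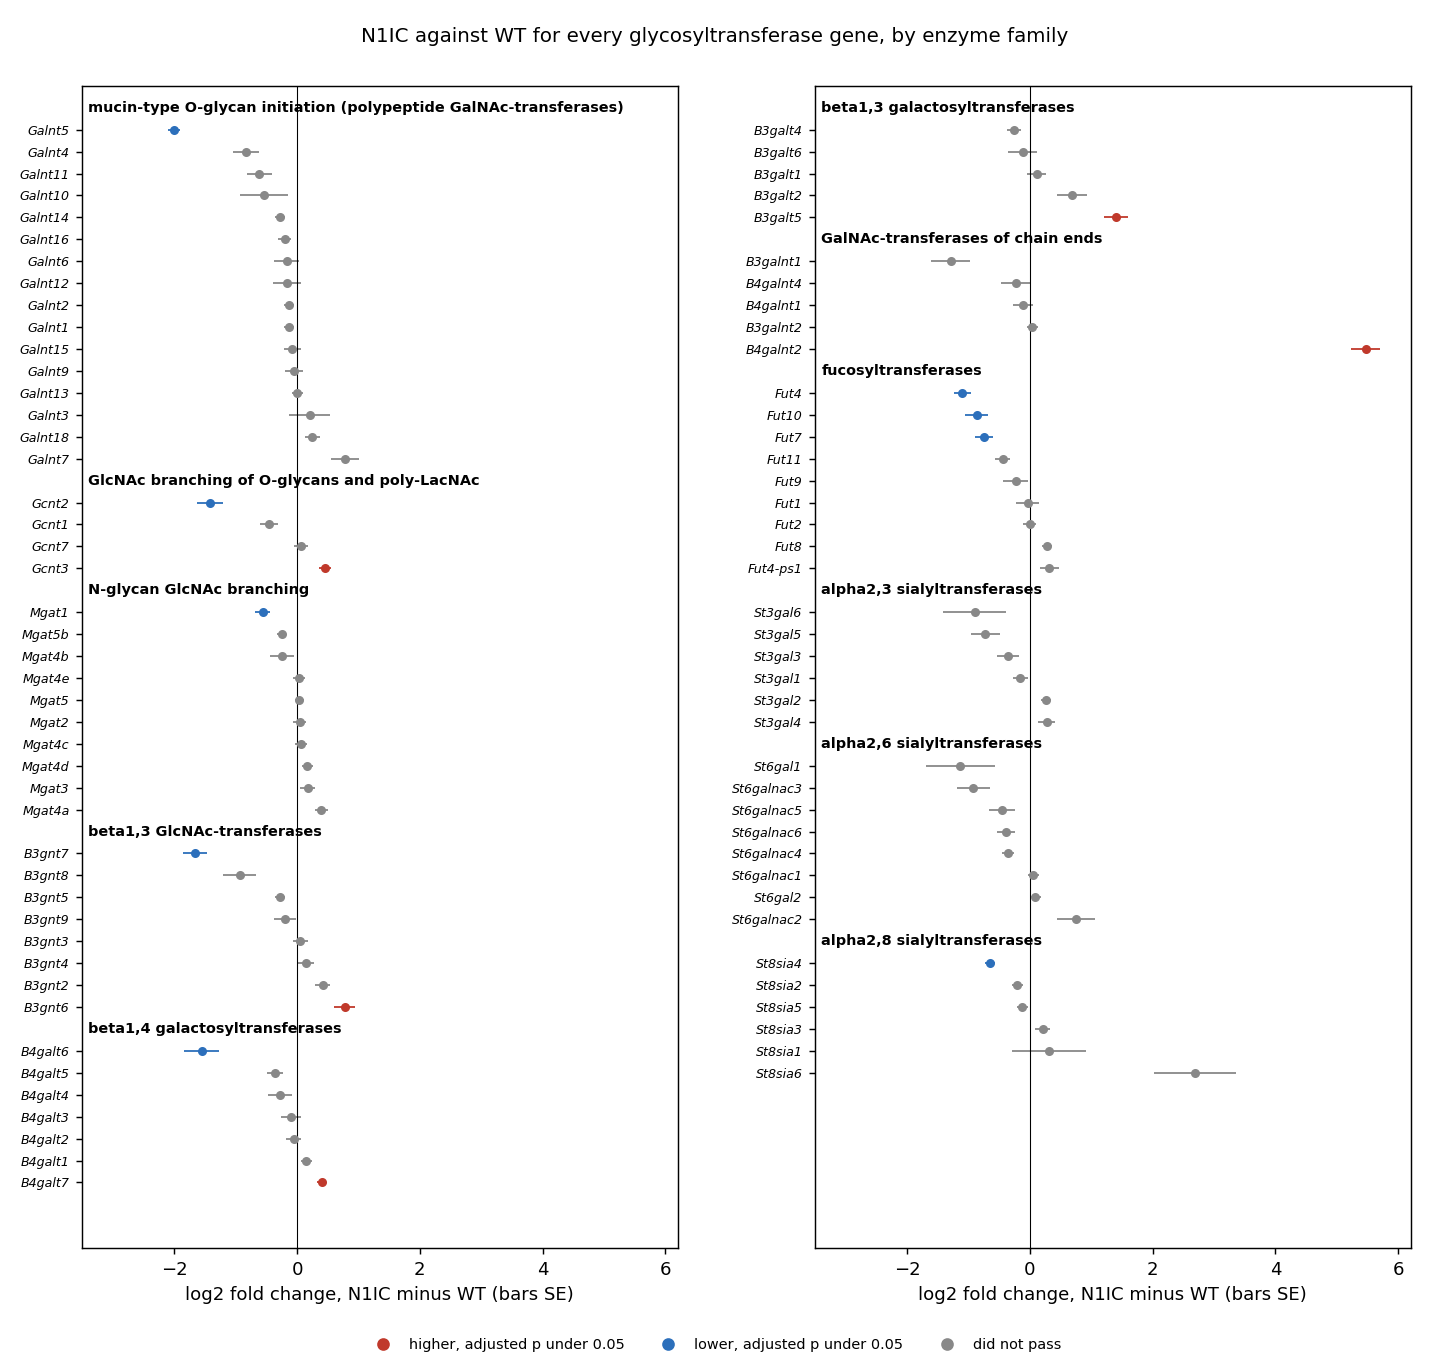
Log2 fold change of N1IC against WT (horizontal axis, bars SE from limma, 3 arrays per group) for all 84 enzymes, grouped by family; red marks the 5 higher, blue the 9 lower and grey the 70 that did not pass. B4galnt2, at 5.47, lies far to the right of the others, and most points lie between -1 and 1.

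Arrays of the series had median intensities between 89.0 and 92.4. Of 5 measured LSK genes, Kit stood between 11.58 and 11.94 in WT and between 11.45 and 11.57 in N1IC, while Flt3, Slamf1 and Cd34 fell. Lineage markers also differed between the groups. On the mean log2 level of the list, 16 T-lineage genes lay between 6.86 and 8.09 in WT and between 10.07 and 10.67 in N1IC (11 higher), 8 B-lineage genes between 9.68 and 10.13 and between 6.65 and 7.06 (6 lower), 12 granulocyte and monocyte genes between 11.11 and 12.37 and between 9.72 and 10.60 (6 lower), and 8 megakaryocyte genes between 8.69 and 9.03 and between 6.28 and 6.91 (6 lower). The 8 mast cell and basophil genes lay between 6.28 and 7.87 in WT and between 8.71 and 9.60 in N1IC (2 higher, Mcpt1 and Cpa3). This list was mixed, since Ms4a2 and Mcpt8 had log2 fold changes of -1.02 and -0.56 without passing, while the others were positive. The 6 dendritic cell genes lay between 9.17 and 10.43 in WT and between 8.07 and 8.36 in N1IC (3 lower). Of 8 macrophage genes 2 were higher, and no erythroid gene of 5 was called. In bulk samples, fewer cells of a type and less RNA per cell cannot be told apart, and the part of these shifts in the enzymes' values was not tested.

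B4galnt2 had the largest difference of the 84. It encodes the enzyme that adds GalNAc to a sialylated galactose at the end of a chain, which makes the Sda (or Cad) blood group structure. Its level was 5.32, 5.12 and 5.89 on WT replicates 1, 2 and 3, and 10.60, 11.08 and 11.04 on N1IC replicates 1, 2 and 3. The groups lie far apart, and the spread within each is under 1 log2 unit. The fold change was 44.2, or 5.47 ± 0.23 on the log2 scale (SE, n = 3 per group; adjusted p 0.00037 by limma). This size depends on the probe set. The probe set of B4galnt2 that is brightest over the WT arrays was 2.46-fold higher in N1IC (1.30 on the log2 scale, adjusted p 0.00134 by limma), and the mean of all its probe sets 4.80-fold (2.26, adjusted p 0.000332). Against WT replicate 2, the only WT female, the mean of the N1IC arrays was 5.79 higher.

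B4galnt2 has 4 probe sets. One rose by 2.47, from 4.81 to 7.28, and that brightest in WT by 1.30, from 6.48 to 7.78, and both passed in the test over all probe sets. The dimmest, at 3.59 in WT and 3.41 in N1IC, did not. The other GalNAc enzymes of chain ends did not pass. B4galnt1, which makes the gangliosides GM2 and GD2, had a log2 fold change of -0.11 on its brightest probe set, while its dimmer probe set fell by 0.88 in N1IC (adjusted p = 0.00958, limma over all probe sets). B3galnt1, the enzyme of globoside, stood at 6.23, 6.64 and 5.41 in WT and 4.58, 4.83 and 5.00 in N1IC, without overlap. Its log2 fold change was -1.29 ± 0.32 (SE), with an adjusted p of 0.0537 by limma; without WT replicate 3 it was -1.63 with an adjusted p of 0.0162. It also passed after repeated quantile normalization (0.046) and after median centring (0.0486).

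The upstream sequence of B4galnt2 is shown because this gene moved most. It is the 250 bases before the start that the RefSeq window gives, chr11:95914872-95915121 on the minus strand of GRCm38.p6, in lower case throughout, because the core motif of the Notch partner Rbpj, TGGGAA, was not found in it on either strand. The annotated gene begins further upstream than this start, so the end of the stretch lies within the gene.
B4galnt2: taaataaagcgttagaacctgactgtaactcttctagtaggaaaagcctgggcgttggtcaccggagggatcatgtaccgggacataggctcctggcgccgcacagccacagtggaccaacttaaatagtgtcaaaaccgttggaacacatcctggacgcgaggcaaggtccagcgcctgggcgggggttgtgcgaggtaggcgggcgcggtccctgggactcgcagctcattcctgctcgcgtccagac
RefSeq windows of 300 bases, 250 before and 50 after a start, were at hand for 10 of the 14 enzymes that passed and 60 of all 84. TGGGAA was found in 1 or more windows of 2 of the 10, Mgat1 and Gcnt2, both lower in N1IC, and in 26.7% of the 60 enzymes against 28.3% of all genes with a window. The 3 matches are shown with 30 bases each, the motif or its reverse complement in capitals, read along the strand of the gene.
Mgat1, chr11:49244007-49244036, plus strand, 172 bases before the start: ccccgctacatcTTCCCAggggccttctgc
Mgat1, chr11:49250389-49250418, plus strand, 151 bases before another start: agttgggggactTGGGAAgacccgttgttt
Gcnt2, chr13:40917653-40917682, plus strand, just after 1 of its 3 starts: tgcgaagtgcggTGGGAAagctgctaaact
The letters are a description, and no binding was measured.

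Among enzymes that start O-glycans, 1 of 16 Galnt genes passed (6.25%, against 11.8% of all genes). Galnt5 was 4.0-fold lower in N1IC. It stood at 6.02, 6.17 and 6.27 in WT and at 4.14, 4.06 and 4.26 in N1IC, so the arrays of each group lay within 0.24 of each other. The log2 fold change was -2.00 ± 0.10 (SE, n = 3 per group) with an adjusted p of 0.000578 by limma. Its signal is dim, among the lower 40% of genes, and it has a single probe set. Galnt1 and Galnt2, which are made in most tissues, had log2 fold changes of -0.13 each. Galnt7, which adds GalNAc beside one already present, had a log2 fold change of 0.79, with WT at 11.04, 11.14 and 10.30 and N1IC at 11.53, 11.72 and 11.59 (adjusted p = 0.0851, limma). The groups did not overlap in 6 of the 16 Galnt genes (37.5%, against 32.8% of all genes). Galnt4 and Galnt11 were among them, at log2 fold changes of -0.83 and -0.62. With all arrays they did not pass (adjusted p 0.0607 and 0.115 by limma). Galnt4 passed without WT replicate 2 and Galnt11 without N1IC replicate 3, with adjusted p of 0.0227 and 0.0241.

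Of 4 Gcnt genes 2 passed (50%, against 11.8% of all genes), and they moved in opposite directions. Gcnt2, the I-branching enzyme that turns straight chains of GlcNAc and galactose into branched ones, was 2.66-fold lower. Its level was 12.83, 12.46 and 12.61 in WT and 10.79, 11.39 and 11.48 in N1IC. The log2 fold change was -1.41 ± 0.21 (SE, n = 3 per group) with an adjusted p of 0.011 by limma. Of its 8 probe sets, 7 were lower in N1IC, 6 of them past the test, by between 1.03 and 2.47 on the log2 scale.

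Gcnt3, a mucin-type enzyme that forms core 2, core 4 and I branches, rose by 0.46 on a dim probe set. It stood at 4.92, 4.80 and 4.65 in WT and at 5.34, 5.22 and 5.18 in N1IC, with an adjusted p of 0.0363 by limma. Of the 6 fits with 1 array fewer, only that lacking WT replicate 1 kept the call, and the others had adjusted p between 0.0835 and 0.112. Gcnt1, the core 2 enzyme of leukocytes, had a log2 fold change of -0.45 ± 0.14 (SE), with an adjusted p of 0.108.

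Of 10 Mgat genes, which branch N-glycans, 1 passed (10%, against 11.8% of all genes). Mgat1, whose GlcNAc opens the way to hybrid and complex N-glycans, was 1.47-fold lower, at 10.75, 10.995 and 10.94 in WT and 10.42, 10.13 and 10.45 in N1IC. The adjusted p was 0.038 by limma. Omitting WT replicate 1 kept the call, and omitting any other array lost it, at adjusted p between 0.0726 and 0.115. The later branching enzymes Mgat2 and Mgat5 had log2 fold changes of 0.04 each. Mgat4a, which adds a further branch to the core, was 0.39 higher on its brightest probe set without passing, and a dimmer probe set was 1.61 higher, at 8.998, 8.63 and 8.38 in WT and 10.37, 10.34 and 10.13 in N1IC (adjusted p = 0.00507, limma over all probe sets).

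The B3gnt family held calls in both directions. Of 8 B3gnt genes, B3gnt7 fell and B3gnt6 rose (25% called, against 11.8% of all genes). B3gnt7, which extends chains of GlcNAc and galactose such as keratan sulfate, was 3.17-fold lower, at 7.77, 7.24 and 7.42 in WT and 6.09, 5.49 and 5.86 in N1IC (log2 fold change -1.66 ± 0.20, SE, adjusted p 0.00597 by limma). B3gnt6, the core 3 enzyme known from the gut, was 1.71-fold higher on a dim probe set, at 4.69, 4.90 and 4.98 in WT and 5.27, 5.75 and 5.87 in N1IC. The adjusted p of B3gnt6 was 0.0437. Omitting N1IC replicate 1 kept the call, and omitting any other array lost it, at adjusted p between 0.0926 and 0.125.

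B3gnt2, the main enzyme for long chains of GlcNAc and galactose, had a log2 fold change of 0.42 on its brightest probe set, with WT at 12.33, 12.17 and 12.02 and N1IC at 12.65, 12.71 and 12.42. It did not pass there (adjusted p = 0.0811, limma), while its dimmer probe set passed at 0.71. B3gnt8 lay lower in N1IC without overlap, at 7.11, 8.07 and 7.53 against 6.55, 6.43 and 6.94, and did not pass with all arrays (adjusted p = 0.0804, limma). Among fits that left out an array, it passed only without WT replicate 1 (adjusted p 0.0379). B3gnt5, which builds lacto-series glycolipids, had a log2 fold change of -0.28.

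Galactosyltransferases gave 2 rises and 1 fall among 12 genes. The share called was 28.6% of 7 B4galt genes and 20% of 5 B3galt genes, against 11.8% of all genes. B3galt5, which adds galactose to GlcNAc to make type 1 chains, was 2.63-fold higher. Its values were 5.89, 6.35 and 5.98 in WT and 7.14, 7.54 and 7.74 in N1IC, a log2 difference of 1.40 ± 0.19 (SE, n = 3 per group; adjusted p 0.00918 by limma). All 4 of its probe sets were higher in N1IC and 2 passed, and their mean rose by 0.61 (adjusted p 0.0148). B4galt6, a lactosylceramide synthase, was 2.93-fold lower, at 10.89, 10.84 and 11.003 in WT and 8.87, 9.19 and 10.02 in N1IC. N1IC replicate 3 was the nearest to WT. All 4 probe sets were lower and 3 passed. The adjusted p on the brightest was 0.0234. Only the fit lacking N1IC replicate 3 kept the call among those with 1 array fewer, and the others gave between 0.0535 and 0.0803.

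B4galt5, the other lactosylceramide synthase, had a log2 fold change of -0.36 (adjusted p = 0.143, limma), with WT between 11.45 and 11.73 and N1IC between 11.06 and 11.44. B4galt7, which adds the first galactose of the linker that holds glycosaminoglycan chains on proteoglycans, was 1.32-fold higher. Its arrays lay between 11.65 and 11.80 in WT and between 12.12 and 12.16 in N1IC, and both probe sets passed. The adjusted p was 0.0232. Of the fits with 1 array fewer, that lacking WT replicate 1 kept the call and the rest gave between 0.0658 and 0.0799. B4galt1, the general enzyme of N-glycan ends, had a log2 fold change of 0.15 without passing.

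**Figure D2:**
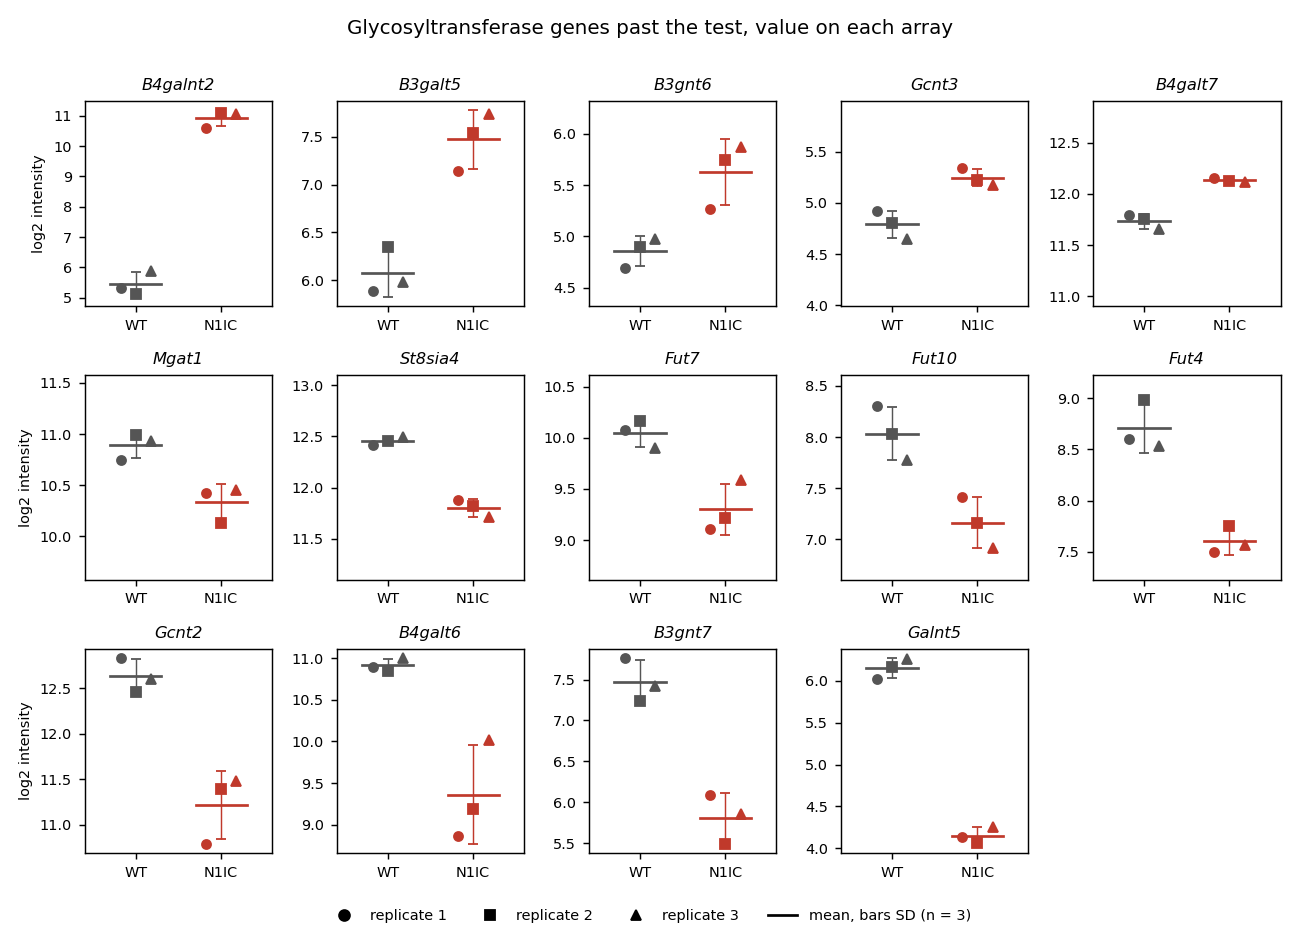
Log2 intensity (vertical axis, scaled for each gene) of the 14 enzymes that passed, on each of the 3 WT and 3 N1IC arrays, with the mean and SD; marker shapes show the replicate number. In all 14 panels the groups do not overlap, with the widest gap for B4galnt2. The same holds for every gene called among all genes tested, so it is not a trait of the enzymes. N1IC replicate 3 is nearest to WT in 7 panels, among them B4galt6, N1IC replicate 1 in 6 and N1IC replicate 2 in 1.

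Of 9 Fut genes, 3 were lower in N1IC (33.3%, against 8.31% of all genes) and none was higher (against 3.47%). Fut4 and Fut7 add alpha1,3-linked fucose and make Lewis x and sialyl Lewis x, the structure that selectins bind. Fut4 was 2.14-fold lower, at 8.60, 8.99 and 8.53 in WT and 7.49, 7.76 and 7.57 in N1IC (log2 fold change -1.10 ± 0.15, SE, adjusted p 0.00798 by limma). A dimmer Fut4 probe set, near 5.3 on average, had a log2 fold change of 0.21 without passing, and with the mean of both probe sets Fut4 did not pass (adjusted p = 0.0978). Fut7 was 1.67-fold lower, at 10.08, 10.16 and 9.90 in WT and 9.11, 9.21 and 9.58 in N1IC (adjusted p 0.0285). Fut10 was 1.83-fold lower, at 8.30, 8.03 and 7.78 against 7.42, 7.16 and 6.92 (adjusted p 0.0328). Fut7 kept its call without N1IC replicate 3 and lost it without any other array, at adjusted p between 0.0588 and 0.0895. That of Fut10 was lost without WT replicate 1 or 2 or N1IC replicate 2 or 3, between 0.0641 and 0.093.

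Fut8, which adds the core fucose of N-glycans, lay above WT on all N1IC arrays, at 12.32, 12.35 and 12.36 against 12.54, 12.58 and 12.74, without passing (adjusted p = 0.0897, limma). Its dimmer probe sets were 1.25 and 0.42 higher and both passed. Fut11 had a log2 fold change of -0.44, with an adjusted p of 0.0758. Fut1 and Fut2, which make the H structure of blood groups, had log2 fold changes of -0.04 and -0.01. The pseudogene Fut4-ps1 had one of 0.31 without passing, and whether its probe set also reads Fut4 was not tested.

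Selplg, the protein that carries the ligand of P-selectin, had a log2 fold change of -0.16 without passing, and St3gal4, which adds sialic acid before fucose, one of 0.27, at 6.85, 6.94 and 6.47 in WT against 7.05, 6.93 and 7.10 in N1IC. St3gal6, which does the same, varied within both groups, at 8.60, 8.82 and 10.04 in WT and 9.11, 7.94 and 7.71 in N1IC.

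Of 20 sialyltransferases, 1 passed on its brightest probe set. That is 1 of 6 St8sia genes (16.7%, against 11.8% of all genes) and none of the St3gal, St6gal and St6galnac genes. St8sia4, which builds polysialic acid, was 1.57-fold lower, at 12.42, 12.46 and 12.49 in WT and 11.88, 11.82 and 11.71 in N1IC. The WT arrays lay within 0.07 of each other, and the log2 fold change was -0.65 ± 0.08 (SE, n = 3 per group) with an adjusted p of 0.00597 by limma. St8sia2, the other polysialic acid enzyme, had a log2 fold change of -0.21 on its brightest probe set, and a dimmer one fell by 1.43 and passed. Both St8sia2 probe sets are among the dim 40%.

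St8sia6, which adds sialic acid to sialic acid mainly on O-glycans, had the second largest difference of the 84 without passing. Its level was 5.93, 8.44 and 7.55 in WT and 10.61, 9.98 and 9.40 in N1IC, so the groups did not overlap while the WT arrays spread over more than 2 log2 units. The log2 fold change was 2.69 ± 0.67 (SE), 6.45-fold, with an adjusted p of 0.0543 by limma. All 3 probe sets were higher, by 2.69, 2.61 and 2.95, and the dimmest passed in the test over all probe sets (adjusted p 0.0417). Without WT replicate 1 the difference was 2.00 with an adjusted p of 0.0496, and against the female WT replicate 2 alone it was 1.55.

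WT replicate 1 was also the lowest WT array for other sialyltransferases. St6gal1, which caps N-glycans of lymphocytes with alpha2,6-linked sialic acid, stood at 8.28, 9.95 and 10.17 in WT and at 9.0, 7.87 and 8.12 in N1IC. It did not pass with all arrays (adjusted p = 0.269, limma), and passed without WT replicate 1 (log2 fold change -1.73, adjusted p 0.0412). St3gal5, which makes the ganglioside GM3, stood at 10.39, 11.31 and 11.05 in WT and at 10.25, 10.29 and 10.03 in N1IC, with an adjusted p of 0.119, and of 0.014 without WT replicate 1. WT replicate 1 was lowest among WT arrays on 7 of the 9 marker lists, all but those of the LSK gate and the B lineage. Among them were the T-lineage list (6.86 against 8.09 and 7.84), the granulocyte and monocyte list (11.11 against 12.37 and 12.22) and the dendritic cell list (9.17 against 10.41 and 10.43), and the part of those cells in the values was not tested.

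Among the remaining sialyltransferases, St6galnac3 was lower on all N1IC arrays, at 9.30, 8.85 and 9.10 against 8.01, 7.76 and 8.71. It did not pass with all arrays (adjusted p = 0.0815, limma), and passed without N1IC replicate 3 (adjusted p 0.0236). Its dimmer probe sets had log2 fold changes of 0.12 and -0.005 without passing. St6galnac2, which acts on O-glycans, stood at 9.73, 10.03 and 9.95 in WT and 10.88, 9.96 and 11.12 in N1IC. With all arrays it did not pass (adjusted p = 0.184, limma), and without N1IC replicate 2 it did (adjusted p 0.0174). Its dimmer probe set had a log2 fold change of -0.18 without passing. St8sia1, which makes the ganglioside GD3, spread from 6.35 to 8.48 within N1IC and from 6.29 to 7.54 within WT.

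**Figure D3:**
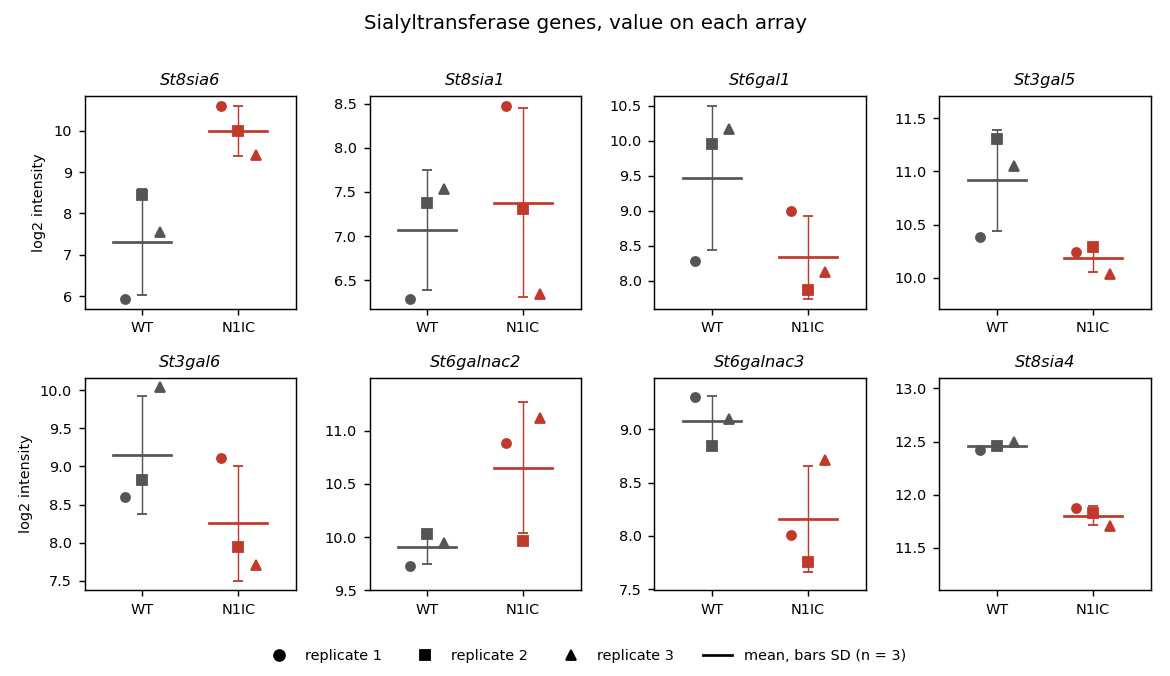
Log2 intensity (vertical axis, scaled for each gene) of 8 sialyltransferase genes on each of the 3 WT and 3 N1IC arrays, with the mean and SD; marker shapes show the replicate number. St8sia4 has the smallest spread within WT, while WT replicate 1 lies below the other WT arrays in every panel but that of St6galnac3.

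The 84 genes are covered by 178 probe sets, 54 of them by more than 1. No gene had probe sets called in both directions. Of the 9 enzymes that passed and have several probe sets, 6 had all of them on the same side of 0. For B4galnt2, Gcnt2 and Fut4 the probe set on the other side did not pass. Conversely, 6 genes did not pass on their brightest probe set but had a dimmer one that did, namely St8sia6, Fut8, Mgat4a and B3gnt2, higher in N1IC, and B4galnt1 and St8sia2, lower. Which transcripts these probe sets read was not analysed here.

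**Figure D4:**
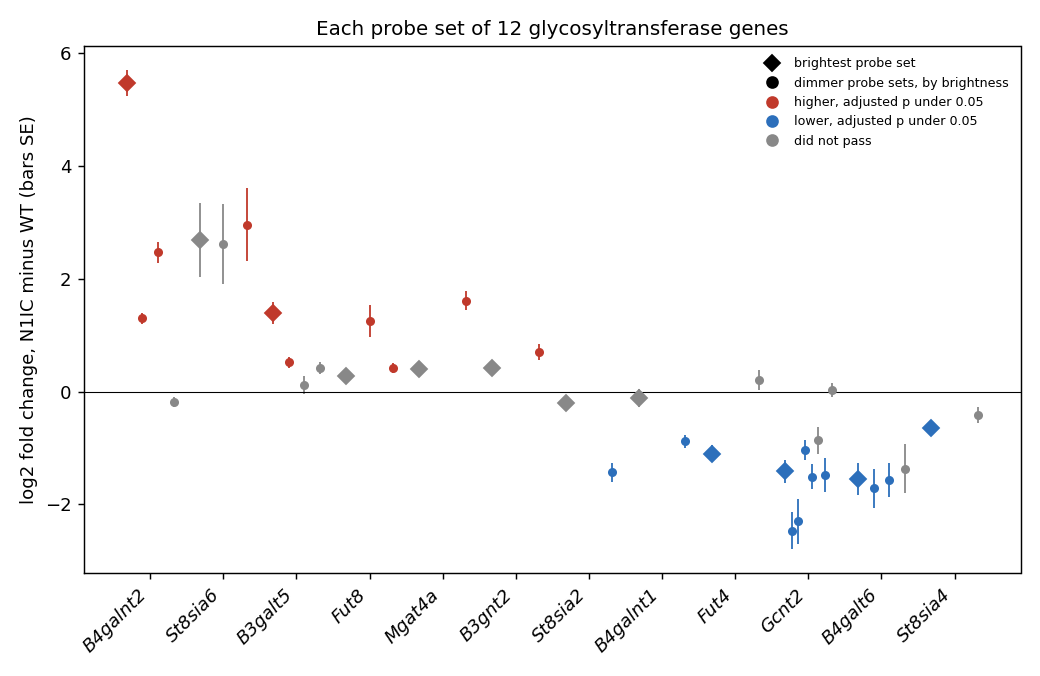
Log2 fold change of N1IC against WT (vertical axis, bars SE) for each probe set of 12 enzymes, from brightest (diamond) to dimmest; red and blue mark adjusted p under 0.05 with all probe sets tested. For Fut8, Mgat4a and B3gnt2 the dimmer probe sets differ more than the brightest, and for B4galnt2 the brightest differs most, at 5.47.

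In 37 of the 84 genes, 44%, the arrays of the groups did not overlap, against 32.8% of all genes tested. Of the 84, 11 lay higher in N1IC and 26 lower. Over all 18193 genes, 2388 lay higher (13.1%) and 3579 lower (19.7%), so the enzymes' share lying higher was near that of all genes. Of the 37 enzymes, 23 did not pass the test, 6 higher and 17 lower. Over all 18193 genes, 3823 were without overlap and did not pass, 1756 higher and 2067 lower. An unadjusted p under 0.05 by limma was found for 36 of the 84 enzymes and 4833 of the 18193 genes. The groups differed by less than 0.25 on the log2 scale in 38 of the 84 and 11443 of the 18193. Of 32 enzymes among the lower 40% of genes by brightness, 3 passed (9.38%, against 4.73% of all such genes), and of the 52 brighter ones 11 did (21.2% against 16.5%). B4galnt2 is among the brighter ones through its N1IC arrays.

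All N1IC mice are female, so sex and genotype are partly confounded. With sex as a covariate, which sets N1IC against WT replicate 2 alone, 3 of the 14 kept their call, namely B4galnt2, Galnt5 and Fut4. The other 11 had adjusted p between 0.0745 and 0.27 in that fit. Over all genes the calls with sex as a covariate were 116 higher and 333 lower, against 632 and 1512 without it. In fits that each left out 1 array, 7 of the 14 passed every time, B4galnt2, B3galt5, Galnt5, B3gnt7, Gcnt2, Fut4 and St8sia4.

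Other genes of glycan synthesis were taken from 7 lists. Over all lists 22 genes were called, and the share called of each list is given below. With sex as a covariate 4 of the 22 kept the call, Chst2, Siglecf, Emcn and Selp. The next list was drawn up for enzymes that add sugars to the EGF repeats of Notch receptors, though not all its genes are known to act there. Of its 12 genes, 3 were lower and none higher (25%, against 8.31% of all genes lower and 11.8% called). Their median log2 fold change was -0.35. Poglut3, which adds glucose to EGF repeats, was 2.01-fold lower, at 10.35, 10.12 and 9.94 in WT and 8.98, 9.21 and 9.19 in N1IC (adjusted p 0.00767 by limma). The Fringe enzymes Mfng and Lfng, which extend the fucose of those repeats, fell by 0.74 and 0.48, with adjusted p of 0.00875 and 0.0426. With sex as a covariate the adjusted p was 0.0905 for Poglut3 and 0.108 for Mfng. The call of Lfng was lost in 12 of 19 other settings, with adjusted p up to 0.571. Rfng, the remaining Fringe, had a log2 fold change of 0.05, and Pofut1, which adds the fucose, one of -0.34 ± 0.11 (SE) with an adjusted p of 0.0982.

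Of 29 genes of N-glycan precursor synthesis, transfer and trimming, 5 were lower and none higher (17.2%, against 8.31% of all genes lower). Alg14 acts in precursor synthesis and the other 4 in trimming. Man1c1 and Man1a, Golgi mannosidases that trim the chain ahead of Mgat1, were 5.13-fold and 2.14-fold lower. Man1c1 stood at 11.54, 11.44 and 11.31 in WT and 8.36, 9.48 and 9.38 in N1IC, with an adjusted p of 0.00725 by limma. Prkcsh, Alg14 and Man1b1 fell by 0.40, 0.47 and 0.48. The calls of Prkcsh and Man1b1 were lost in every fit that left out 1 array, with adjusted p between 0.0529 and 0.138, and that of Alg14 in all but the fit without WT replicate 2, between 0.0837 and 0.117.

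Of 15 glycan sulfotransferases, 1 rose and 2 fell (20% called, against 11.8% of all genes). Chst2, which sulfates GlcNAc, was 3.59-fold higher, from 5.28, 5.68 and 5.28 in WT to 6.99, 7.22 and 7.55 in N1IC (adjusted p 0.00339, limma). Chst10, the sulfotransferase of the HNK-1 structure, was 2.17-fold lower, and Chst12, of chondroitin sulfate, 1.70-fold lower. Among 10 other Golgi transferases 1 rose and none fell (10% called). It was Ugcg, which makes the glucosylceramide that B4galt5 and B4galt6 extend, at 1.72-fold, from 11.41, 11.30 and 11.23 to 12.16, 12.09 and 12.04 (adjusted p 0.00419). With the mean of all probe sets the log2 fold change was 0.81 for Chst2 and 1.82 for Ugcg, and both passed (adjusted p 0.0186 and 0.00717).

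Among genes that supply sugars, the shares called were 9.09% for sialic acid and 13% for nucleotide sugars, near the 11.8% of all genes. Of 11 genes of sialic acid synthesis, transport and removal, Slc35a1, which carries CMP-sialic acid into the Golgi, fell by 0.54. Of 23 genes of nucleotide sugar synthesis and transport, 1 rose and 2 fell. Slc35c1, the carrier of GDP-fucose, fell by 0.41, Uap1, which makes UDP-GlcNAc, fell by 0.60, and Pmm1, a phosphomannomutase, rose by 0.57. By limma the adjusted p was 0.0269 for Slc35a1, 0.0272 for Slc35c1, 0.00679 for Uap1 and 0.0154 for Pmm1. When 1 array was left out, the calls of Slc35a1 and Slc35c1 were lost in 5 of 6 fits each, kept only without N1IC replicate 2 and without WT replicate 1 in that order, with adjusted p between 0.0557 and 0.0867. That of Pmm1 was lost in 3 fits, those lacking WT replicate 3, N1IC replicate 1 and N1IC replicate 2 in turn, between 0.0534 and 0.0575.

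Among 28 genes for glycan-binding receptors and sialomucin carriers, 2 rose and 4 fell (21.4%, against 11.8% of all genes). The sialic acid receptor Siglecf was 3.31-fold and the galectin Lgals7 2.71-fold higher. Emcn, an endothelial sialomucin, was 18.7-fold lower, Selp, P-selectin, 2.25-fold, Asgr1, a receptor for galactose ends, 2.05-fold, and Cd34, a sialomucin of progenitors, 1.54-fold. Selp lost its call in every fit that left out 1 array (adjusted p between 0.0506 and 0.125 by limma), Asgr1 in 4 of them, those without WT replicate 2 or any N1IC array (0.0547 to 0.0813), Lgals7 without N1IC replicate 1 or 2 (0.0531 and 0.0584) and Cd34 without WT replicate 3 (0.052).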

How the data were processed

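The deposited intensity values are linear probe set signals that the authors made with RMA, per the submitters' processing notes; its version and settings were not given in the sources used here. The linear scale was read from the range of the values. Per the labels' protocols, 5 ng of total RNA was amplified before labelling. Log2 was taken, symbols were updated by gene ID through RefSeq (GRCm38.p6), and the brightest of each gene's probe sets was kept, out of 34945 with a single symbol.

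Differences between N1IC and WT came from limma 3.58.1 (R 4.3.3) with lmFit and eBayes, without covariates. P-values were two-sided and Benjamini-Hochberg adjusted over 18193 genes at a threshold of 0.05. Probe sets were also tested singly, adjusted over all 34945. The code was tested on simulated data. The enzymes, the lists and the rule for names were chosen with earlier results of these data known. The rule names every enzyme that passed, other enzymes where their level or spread is described, up to 6 called genes per list, the Fringes and Pofut1; Selplg was added after its values were seen. Promoter sequences come from RefSeq. Alternatives were leaving out each array, the replicate block, sex as a covariate, other scalings, filters, probe set rules (1 of them added after the data were seen) and thresholds. The number of arrays limits precision.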

Additional observations from a re-analysis of the deposited data

How the results depend on the processing

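With 3 arrays per group the counts of enzymes called depend on the setting more than the directions do. Over all genes, the main fit, with all arrays and no covariate, called 632 higher and 1512 lower. These counts were 357 and 936 with the replicate block and 116 and 333 with sex as a covariate. They were 794 and 1446 with the mean of all probe sets and 775 and 1641 with an intensity trend. At an adjusted p of 0.01 they were 209 and 536, and with a 2-fold minimum 289 and 768. When 1 array was left out they lay between 332 and 509 and between 835 and 1420. Each count below takes every enzyme, or every list gene, called in that setting, including those not called in the main fit. For enzymes higher in N1IC, 5 in the main fit, the count was 3 with the replicate block and 1 with sex as a covariate. It was 8 with the mean of all probe sets, 8 with an intensity trend, 2 at an adjusted p of 0.01 and 2 with a 2-fold minimum. When 1 array was left out it lay between 2 and 5. For enzymes lower in N1IC, 9 in the main fit, the count was 2 with sex as a covariate, 4 at an adjusted p of 0.01 and 5 with a 2-fold minimum. When 1 array was left out it lay between 5 and 9, and the lowest was without N1IC replicate 2. Of the 14 enzymes called in the main fit, between 7 and 10 kept their call when 1 array was left out. For genes of the 7 lists, 22 in the main fit, the count was 13 with the replicate block and 4 with sex as a covariate. It was 10 at an adjusted p of 0.01 and 10 with a 2-fold minimum, and between 12 and 22 when 1 array was left out. Deviations of same-numbered arrays correlated at -0.09, -0.07 and 0.07 over all genes. With 3 arrays per group this cannot settle whether replicate numbers pair the samples. With the block, 9 of the 14 kept their call. Repeated quantile normalization and median centring kept all 14 calls. None of the 14 changed direction in any setting run. Without a call, Galnt2 was at 0.0067 with the mean of all probe sets, Rfng at -0.00063 in that setting and between -0.0082 and 0.15 when 1 array was left out, and St8sia1 at -0.00040 with sex as a covariate and between -0.24 and 0.83 when 1 array was left out; the cause was not tested. Of 43 further enzymes without a call whose groups overlapped, 27 changed sign in some setting. Taking the probe set brightest over the WT arrays, an alternative chosen after seeing the data, gave 5 higher, 10 lower and 22 over the lists, and all 14 enzymes kept their call; St8sia2 was added, and St3gal2, without a call either way, turned from 0.25 to -0.49. Of the dim 40% of genes, 4.73% were called, against 16.5% of the brighter ones.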
